A study of Mus musculus with 42 samples.

Results

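Expression of 10 acute phase protein genes was followed in the livers of male C57B6/J mice: Saa1, Saa2, Saa4, Orm1, Orm2, Orm3, Lcn2, Hp, Apcs and Lbp. They were taken by symbol from the gene count tables, in which all 10 of 10 were present among 55573 gene IDs per table, and all 10 passed the low-count filter in both arms. Liver mRNA was counted in 42 mice, 6 per group. The acute arm compared vehicle with corticosterone (CORT), which is the principal glucocorticoid hormone in mice, with enzalutamide (ENZA), an antagonist of the androgen receptor, and with both agents together (CORT+ENZA). The chronic arm compared vehicle, CORT and CORT+ENZA. A chronic group on ENZA alone was not analysed here. All 7 groups were C57B6/J males and the labels name no genetic change. The sources used here do not give age, dose, route or length of treatment. The comparisons ask how glucocorticoid exposure of either duration changes liver mRNA and whether blocking the androgen receptor alters that.

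Acute phase proteins are plasma proteins that the hepatocyte makes in greater or lesser amounts during infection, injury or other stress. Interleukin-6 acting through STAT3 and interleukin-1 acting through NF-kappaB drive most of the positive ones, with C/EBP factors as partners, and glucocorticoids are known to act on many of these genes together with the cytokines. The 10 genes differ in what their proteins do: Saa1 and Saa2 are the inducible serum amyloid A proteins of high-density lipoprotein and Saa4 the constitutive one, the orosomucoids Orm1 to Orm3 carry drugs and steroids in plasma, haptoglobin (Hp) binds free haemoglobin, lipocalin 2 (Lcn2) binds bacterial siderophores, the pentraxin Apcs (serum amyloid P) binds microbial surfaces and amyloid, and Lbp hands bacterial lipopolysaccharide to CD14.

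Summed over genes, acute libraries had 18674151 to 20464521 counts and chronic ones 15381724 to 19581723. Levels are given as CPM, that is counts scaled to a common library size with TMM factors, and differences as log2 fold changes ± SE from edgeR's quasi-likelihood test. A gene is called when its Benjamini-Hochberg adjusted p over all genes of the comparison is under 0.05. RNA was extracted with a different kit in each arm, so kit and duration cannot be told apart, and levels are compared only within an arm. The labelled tissue held its defining markers, since the summed level of 7 hepatocyte markers ranged from 66700 to 144200 CPM per library. In bulk tissue, fewer cells of a type and less RNA per cell cannot be told apart.

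Per kilobase of the longest coding transcript, haptoglobin was the highest of the 10 genes in each of the 7 groups and Orm1 the second, by group mean. In the acute arm group means of haptoglobin ran from 1474 CPM per kb with ENZA to 2762 with CORT+ENZA, and those of Orm1 from 802 to 1390 in the same groups. That CORT+ENZA group holds the far mouse L30A described below. In the chronic arm haptoglobin ran from 1386 CPM per kb in vehicle to 2130 with CORT, and Orm1 from 918 in vehicle to 1039 with CORT+ENZA. Orm3 was the lowest of the 10 in the chronic vehicle group at 2.89 CPM per kb. Together the 10 genes made up a median of 0.368% of the acute vehicle libraries and 0.309% of the chronic vehicle libraries.

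A pair of acute mice stood apart from the rest. In the CORT+ENZA group, mouse L30A was the highest of the 24 acute mice for 9 of the 10 genes, all but Saa4. In the vehicle group, mouse L31A was the highest of its group for 9 of 10, all but Orm3, although it had received neither agent by its label. Both lay far above the rest of their group for the same 7 genes, namely Saa1, Saa2, Orm1, Orm2, Lcn2, Hp and Apcs. Saa4, Orm3 and Lbp did not mark either mouse in this way. ENZA mouse L29A stood out for Saa2, Orm2 and Lcn2. Acute results are given with all mice. For the 10 genes, many are also given without L31A and L30A or without L29A too. No fit without these mice is given for genes outside the 10. Those mice were picked by the very values compared, so the fits without them are alternatives chosen after the values had been seen.

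**Figure D1:**
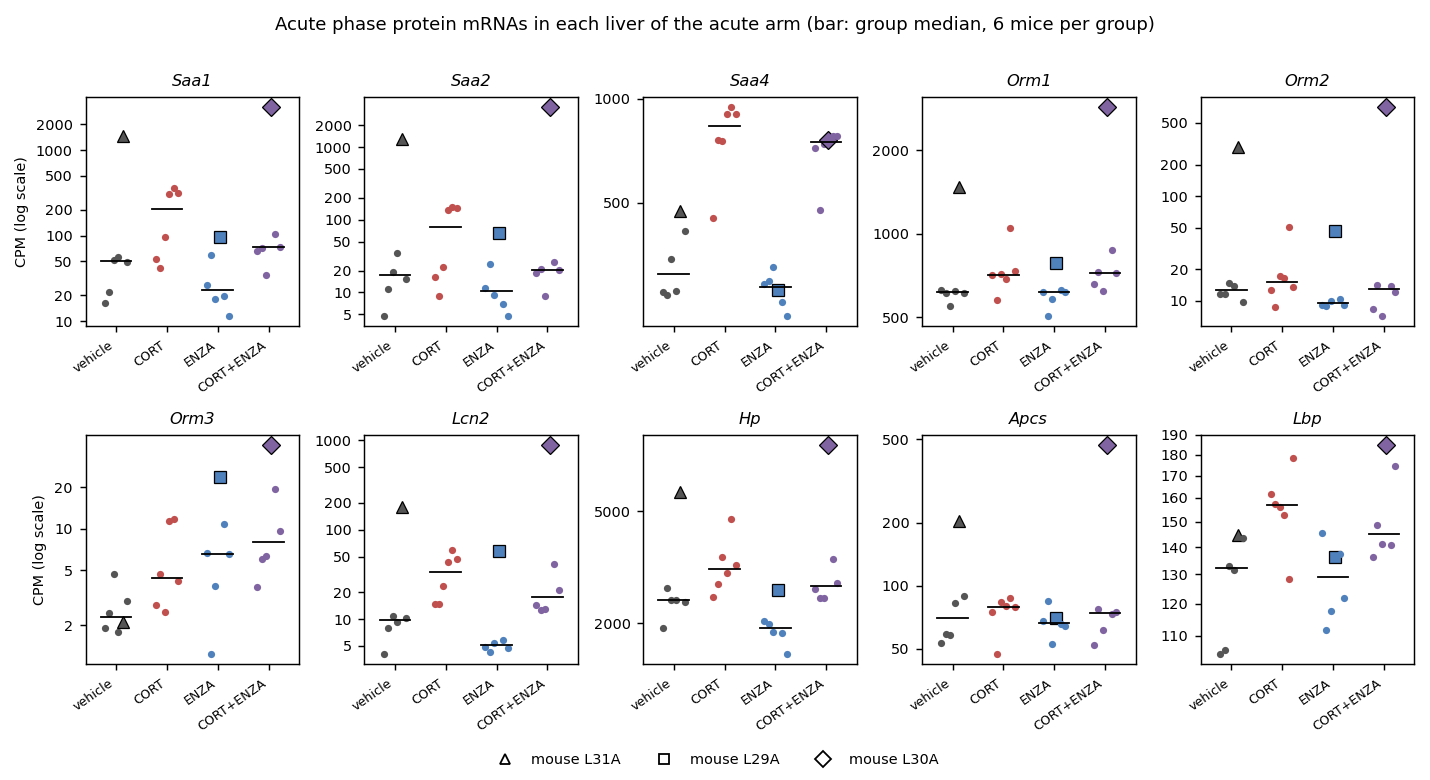
Level of each acute phase protein mRNA in CPM on a log axis, by group of the acute arm, with 1 point per mouse and a bar at the median of 6 mice. Mice L31A (vehicle), L29A (ENZA) and L30A (CORT+ENZA) are drawn with their own symbols; Saa1 reached 1443 CPM in L31A and 3179 CPM in L30A, whereas Saa4 was higher in 11 of the 12 mice given CORT or CORT+ENZA than in every vehicle and ENZA mouse.

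The serum amyloid A genes lie together on chromosome 7 of GRCm38: Saa1 at chr7:46740497-46742980 on the minus strand, Saa2 at chr7:46751790-46754313 on the plus strand and Saa4 at chr7:46727998-46732603 on the minus strand. The transcripts of Saa1 and Saa2 are near-identical in part, with 14.8% of the 50-base stretches of Saa1 and 9.12% of those of Saa2 also found in another gene, so Saa1 is given as uncertain and the Saa1 to Saa2 split should be read with that in mind. Saa4 shares 1.08%. Promoter sequences from RefSeq (GRCm38.p6) were held for 7 of the 10 genes. Over the 250 bases before the start, Saa1 and Saa2 were 94.8% identical after alignment and Saa1 and Saa4 49.5%. The Saa1 and Saa2 windows are shown because their mRNAs moved together in these livers. Each runs from 250 to 51 bases before the start, on the strand of the gene, Saa1 at chr7:46743031-46743230 and Saa2 at chr7:46751583-46751782. Capitals mark a match to TTGCNNAA, the C/EBP letters, the only one of the motifs searched that matched in them.

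Saa1: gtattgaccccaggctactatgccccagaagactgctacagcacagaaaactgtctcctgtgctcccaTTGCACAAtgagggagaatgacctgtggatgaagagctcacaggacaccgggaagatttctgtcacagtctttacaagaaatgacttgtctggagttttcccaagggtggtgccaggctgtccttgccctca

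Saa2: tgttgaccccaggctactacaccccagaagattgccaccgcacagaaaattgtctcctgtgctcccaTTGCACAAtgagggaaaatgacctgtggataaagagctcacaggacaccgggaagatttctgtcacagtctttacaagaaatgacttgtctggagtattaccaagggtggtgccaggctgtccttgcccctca

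Both windows held 1 C/EBP match, with its first base 182 bases before the start in Saa1 and 183 in Saa2. The same letters on either strand occur in 9.56% of 32851 RefSeq promoters of equal length. The Saa4 window held 2 such matches. None of the 3 held a match to the NF-kappaB consensus searched (in 7.25% of promoters), to the STAT letters TTCCNGGAA (0.913%), to the glucocorticoid receptor letters ACANNNTGT (5.84%) or AGAACA (16.1%), or to TATAAA (12.4%). A match is a description of the letters only, and the letters of the C/EBP and NF-kappaB motifs were settled after the sequences had been seen.

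Saa4 was the only one of the 10 genes called after acute CORT in edgeR's test. Acute vehicle mice had 271 to 473 CPM with a median of 312, and CORT mice 452 to 946 CPM with a median of 832. ENZA mice had 236 to 328 CPM (median 286) and CORT+ENZA mice 479 to 783 CPM (median 750.5). The CORT and vehicle groups overlapped through CORT mouse L14A alone, and the CORT+ENZA group lay wholly above both vehicle and ENZA. Saa4 rose by 1.20 ± 0.16 with CORT (adjusted p = 0.000246), in a comparison that called 1.62% of 13733 genes. It rose by 1.33 ± 0.16 with CORT+ENZA against ENZA (adjusted p = 5.81e-05; 1.81% of genes called) and by 1.05 ± 0.16 against vehicle (adjusted p = 0.000482; 2.47% called). The comparisons with vehicle share their control mice. No alternative setting ended these calls, and without L31A, L29A and L30A the CORT difference was 1.31 (adjusted p = 0.000267).

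After chronic treatment Saa4 had 197 to 413 CPM in vehicle (median 302), 231 to 357 in CORT (median 244) and 175 to 402 in CORT+ENZA (median 279). The 3 groups overlapped broadly. The CORT difference was -0.15 ± 0.19 with a 95% interval of -0.53 to 0.22 (adjusted p = 0.621). Both arms fitted in a single model gave a chronic minus acute CORT effect on Saa4 of -1.32 ± 0.26 (adjusted p = 0.00127), in a test that called 6.17% of 14138 genes.

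Saa1 and Saa2 were lower after chronic CORT. Saa1 had 16.3 to 94.4 CPM in vehicle (median 48.2), 4.82 to 18.1 in CORT (median 6.93) and 7.71 to 49.4 in CORT+ENZA (median 12.3). Saa2 had 6.01 to 44.6 CPM in vehicle (median 10.6), 1.21 to 6.84 in CORT (median 2.80) and 3.48 to 23.1 in CORT+ENZA (median 5.92). For each gene only CORT mouse 2, the highest of its group, reached into the vehicle range. Saa1 fell by 2.46 ± 0.51 with CORT (adjusted p = 0.00311) and Saa2 fell by 2.22 ± 0.59 (adjusted p = 0.0152), in a comparison that called 18.3% of 13099 genes. Both calls held in every alternative run, and without vehicle mouse 12, the highest of its group for both genes, the differences were -2.14 and -1.51, the latter with an adjusted p of 0.0475.

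With CORT+ENZA the 2 genes stood between the other groups. Against CORT the differences were 1.03 ± 0.50 for Saa1 (adjusted p = 0.202) and 1.35 ± 0.59 for Saa2 (adjusted p = 0.152), so neither was called, while 11.8% of genes were. Against vehicle, Saa1 fell by 1.43 ± 0.48 (adjusted p = 0.0485, with 18.6% of genes called), and Saa2 differed by -0.87 ± 0.55 (adjusted p = 0.308). Over the alternatives this Saa2 difference ran from -1.66 to -0.15. It was called in 1 of them, without mice 11 and 18 (adjusted p = 0.0327), and its adjusted p was highest without vehicle mouse 12 (0.867). The Saa1 call held in 3 of the 12 fits that left out 1 mouse, its adjusted p running from 0.00293 without mouse 18 to 0.134 without vehicle mouse 12. It was also lost with RLE size factors (adjusted p = 0.0518), with only the groups compared (0.0729) and with no low-count filter (0.131). CORT+ENZA mouse 18 had 49.4 CPM of Saa1 against 7.71 to 16.7 in the other 5 mice of its group.

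Acute levels of Saa1 and Saa2 varied widely within groups. Saa1 had 16.2 to 1443 CPM in vehicle (median 50.1), 41.9 to 358 in CORT (median 203), 11.5 to 95.8 in ENZA (median 22.9) and 34.8 to 3179 in CORT+ENZA (median 72.7). Without the single highest mouse, vehicle ended at 56.2 CPM and CORT+ENZA at 105 CPM. The CORT group itself was split, with mice L20A, L14A and L26A at 41.9 to 95.9 CPM and mice L2A, L8A and L32A at 310 to 358 CPM. Saa2 showed the same split, 8.88 to 22.1 CPM against 135 to 149 CPM in the same mice.

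Neither gene was called in an acute comparison by edgeR's test with all mice, and DESeq2 called Saa1 with CORT+ENZA against ENZA (3.94, adjusted p = 0.0153). Over the alternatives this Saa1 difference ran from 0.87 to 4.46. Its adjusted p was highest in edgeR's test without L30A (0.748). With all mice the CORT difference from vehicle was -0.49 ± 1.21 for Saa1 (adjusted p = 0.905) and -1.51 ± 1.54 for Saa2 (adjusted p = 0.714). Without L31A and L30A the same differences were 2.33 ± 0.64 (adjusted p = 0.0808) and 2.21 ± 0.79 (adjusted p = 0.194), and leaving out L31A alone gave 2.33 (adjusted p = 0.354) and 2.21 (adjusted p = 0.519), so that the sign of both turned without that 1 vehicle mouse. It also turned with all mice kept, to 1.17 and 0.71 in limma-voom and to 1.01 and 0.74 with sets of mouse numbers as a term, none of them called. Without L31A and L30A, CORT+ENZA against CORT also changed sign, from 1.59 to -1.47 for Saa1 and from 2.93 to -2.07 for Saa2. The CORT effect in the chronic minus that in the acute arm was -1.95 ± 1.42 for Saa1 (adjusted p = 0.465) with all mice and -4.76 without L31A and L30A (adjusted p = 0.000594). For Saa2 it was -0.68 ± 1.83 (adjusted p = 0.882) and -4.40 (adjusted p = 0.00892).

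The share of Saa1 in the sum of Saa1 and Saa2 had acute group medians from 69.5% in vehicle to 78.5% in CORT+ENZA. Chronic group medians ran from 68.5% in CORT+ENZA to 75.3% in vehicle. The lowest single shares were those of the far mice, 53.0% in L31A of the acute vehicle group and 47.2% in L30A of the acute CORT+ENZA group. Within groups, log2 levels of Saa1 and Saa2 correlated at r = 0.992 over the 24 acute mice and at 0.975 over the 22 mice left without L31A and L30A. These are correlations across libraries that share scaling, given as a description.

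The 3 orosomucoid genes are neighbours on chromosome 4, Orm1 at chr4:63344560-63348163, Orm3 at chr4:63356162-63359511 and Orm2 at chr4:63362449-63365878, all on the plus strand. Orm1 and Orm2 share 20.4% and 22.7% of their 50-base stretches with other genes, mainly each other, so their split is uncertain. Orm3 shares 3.59%. The deposited tables list read pairs without a unique alignment as 9.34 to 12.8% of each acute library and 18.6 to 22.7% of each chronic one. The sources used here do not say whether such pairs were also counted in genes. The promoters of Orm2 and Orm3 are shown because edgeR's test called Orm3 but not Orm2 with chronic CORT+ENZA against CORT, while the windows were 85.9% identical. No test set the response of Orm2 against that of Orm3. The windows are the 250 bases before the start, Orm2 at chr4:63362199-63362448 and Orm3 at chr4:63355908-63356157. In Orm2, capitals mark in order AGAACA (a glucocorticoid receptor half-site), a C/EBP match and TATAAA. In Orm3 they mark a C/EBP match and then ACANNNTGT (glucocorticoid receptor core letters) joined to TATAAA.

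Orm2: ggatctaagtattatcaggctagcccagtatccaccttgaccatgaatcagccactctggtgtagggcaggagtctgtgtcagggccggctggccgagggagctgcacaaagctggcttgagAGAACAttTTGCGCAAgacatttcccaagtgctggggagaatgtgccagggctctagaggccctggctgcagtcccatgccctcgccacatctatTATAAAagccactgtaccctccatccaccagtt

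Orm3: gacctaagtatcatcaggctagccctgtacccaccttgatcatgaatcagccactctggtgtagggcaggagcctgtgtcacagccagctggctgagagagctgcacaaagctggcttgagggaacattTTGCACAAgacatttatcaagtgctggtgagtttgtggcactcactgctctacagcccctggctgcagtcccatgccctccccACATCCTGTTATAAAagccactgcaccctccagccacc

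The C/EBP match began 120 bases before the start in Orm2 and 121 in Orm3. The half-site letters stood 128 bases before the start of Orm2 and were not in the Orm3 window, while the core letters stood 38 bases before the start of Orm3 and were not in the Orm2 window. TATAAA began 33 and 29 bases before the start.

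Orm3, the least abundant orosomucoid per kilobase in every group but chronic CORT+ENZA, had the largest rise of the 10 genes in the chronic arm. Its level was 1.61 to 2.98 CPM in vehicle (median 2.19), 0.915 to 3.98 in CORT (median 2.31) and 4.77 to 24.5 in CORT+ENZA (median 16.0). All 6 CORT+ENZA mice lay above all 12 others, and the lowest of the 6 was mouse 18, the other 5 having 14.5 CPM or more. Orm3 rose by 2.77 ± 0.33 against CORT (adjusted p = 2.07e-05) and by 2.83 ± 0.33 against vehicle (adjusted p = 7.96e-06), and both calls held in every alternative. CORT alone left it at 0.05 ± 0.35 from vehicle, with a 95% interval of -0.62 to 0.73 (adjusted p = 0.935).

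Acute levels of Orm3 were 1.80 to 4.69 CPM in vehicle (median 2.29), 2.51 to 11.7 in CORT (median 4.43), 1.24 to 23.6 in ENZA (median 6.62) and 3.81 to 40.5 in CORT+ENZA (median 8.04). The medians of both groups given ENZA were above those of the groups without it, but all groups overlapped. The CORT+ENZA difference from vehicle was 2.42 ± 0.65 and just missed the threshold (adjusted p = 0.0513). It was called with DESeq2 (adjusted p = 0.00411), with a stricter low-count filter, with sets of mouse numbers as a term, and without mouse L12A. It was lower and uncalled at 1.68 with limma-voom (adjusted p = 0.175), 1.76 without L30A (0.145) and 1.71 without L31A and L30A (0.212). ENZA alone differed from vehicle by 1.72 ± 0.65 (adjusted p = 0.224), and by 1.12 without L29A (adjusted p = 0.457). The effect of adding ENZA to CORT, chronic minus acute, was 1.55 ± 0.74 and was not called (adjusted p = 0.353; 1.27% of genes called).

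Orm1 and Orm2 were not called in any comparison by edgeR's test with all mice. Chronic Orm1 had 633 to 771 CPM in vehicle, 725 to 911 in CORT and 645 to 921 in CORT+ENZA, and the CORT difference was 0.17 ± 0.09 (adjusted p = 0.190). Without mouse 18 the CORT+ENZA difference of Orm1 from vehicle was called at 0.23 (adjusted p = 0.0389). Acute Orm1 had 549 to 1477 CPM in vehicle, 577 to 1048 in CORT, 505 to 782 in ENZA and 622 to 2863 in CORT+ENZA. Outside L31A, L30A and CORT mouse L32A, no acute mouse had more than 874 CPM of Orm1.

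Orm2 was a minor transcript in most livers and varied over a wide range. Its acute group medians were 12.8 CPM in vehicle, 15.0 in CORT, 9.51 in ENZA and 13.1 in CORT+ENZA, but 1 mouse of each group reached 298, 50.3, 46.6 and 709 CPM in that order. Chronic mice had 6.04 to 9.59 CPM in vehicle, 4.00 to 10.8 in CORT and 7.86 to 19.8 in CORT+ENZA. The chronic CORT+ENZA difference from CORT was 0.67 ± 0.24 (adjusted p = 0.0801), which DESeq2 (adjusted p = 0.0483), limma-voom (0.0316) and the fit without CORT mouse 1 (0.0236) called. Without mouse 18 it was 0.38 (adjusted p = 0.219). Orm1 made up a median of 97.6% of the summed orosomucoid CPM in acute vehicle mice, and 83.1% in the lowest one, the far mouse L31A. Its lowest to highest share in chronic livers was 96.3 to 97.4% with CORT+ENZA, below the 98.1 to 99.2% with CORT and the 98.3 to 98.9% with vehicle.

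**Figure D2:**
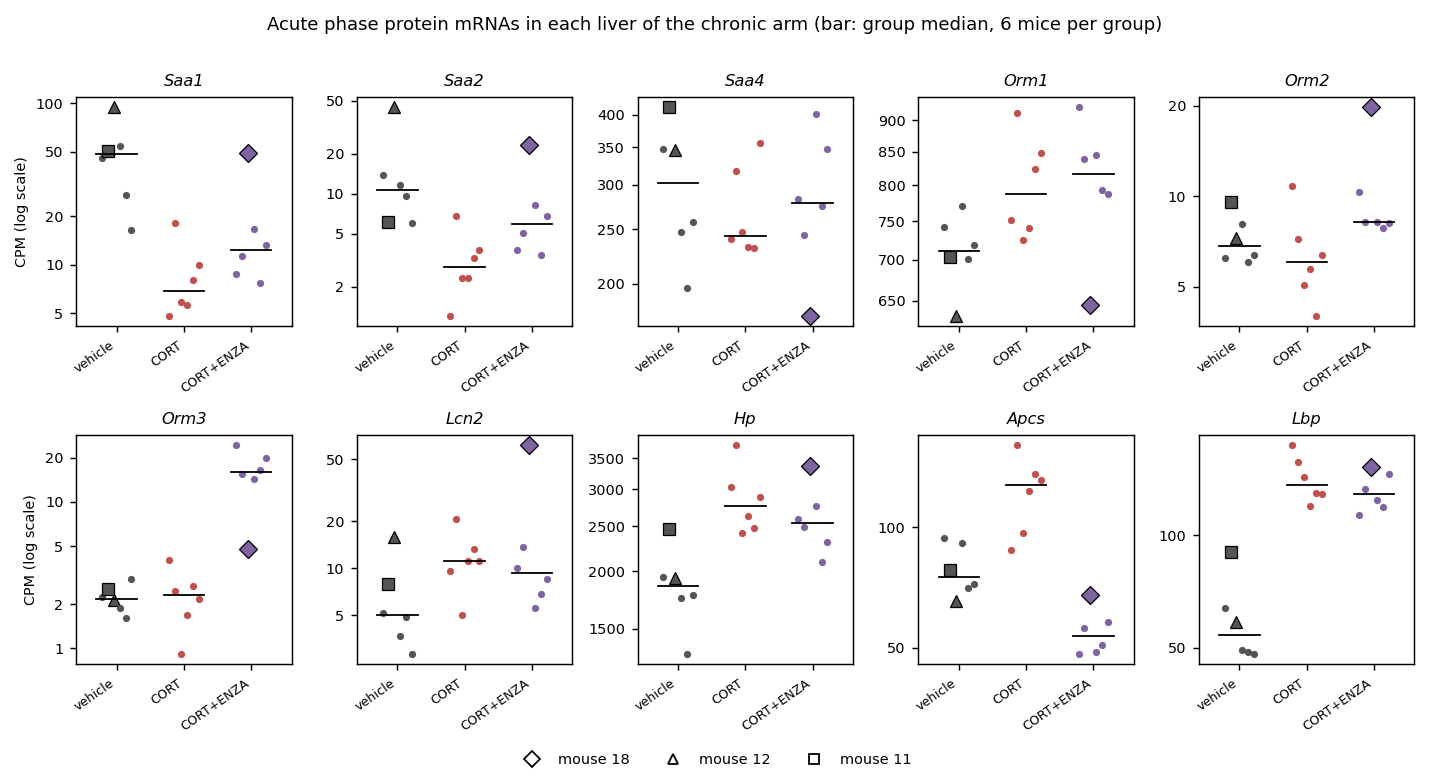
Level of each acute phase protein mRNA in CPM on a log axis, by group of the chronic arm, with 1 point per mouse and a bar at the median of 6 mice. Mice 18 (CORT+ENZA), 12 and 11 (vehicle) are drawn with their own symbols; Orm3 was 4.77 CPM or more in all CORT+ENZA mice and 3.98 or less in all others, and Lbp was 120 CPM or more in all CORT mice and 90.4 or less in all vehicle mice.

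Haptoglobin, which binds free haemoglobin, lies at chr8:109575128-109579172 on the minus strand. Chronic Hp had 1325 to 2460 CPM in vehicle (median 1853), 2420 to 3737 in CORT (median 2757) and 2088 to 3369 in CORT+ENZA (median 2536). The CORT and vehicle groups met only at vehicle mouse 11 and CORT mouse 25. Hp rose by 0.62 ± 0.14 with CORT (adjusted p = 0.00519) and by 0.48 ± 0.14 with CORT+ENZA against vehicle (adjusted p = 0.0224). The second call missed the threshold without vehicle mouse 14 (adjusted p = 0.0519). CORT+ENZA and CORT differed by -0.14 ± 0.14 (adjusted p = 0.579).

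Acute Hp had 1918 to 5828 CPM in vehicle (median 2407), 2472 to 4672 in CORT (median 3115), 1552 to 2619 in ENZA (median 1925) and 2451 to 8586 in CORT+ENZA (median 2708). Without mouse L31A the vehicle group ended at 2670 CPM, so that 5 of the 6 CORT mice lay above it. The CORT difference was 0.15 ± 0.29 (adjusted p = 0.864) with all mice and 0.47 ± 0.14 without L31A and L30A (adjusted p = 0.107). CORT+ENZA against ENZA was 0.91 ± 0.29 (adjusted p = 0.119), and it was called without L31A, L29A and L30A at 0.56 (adjusted p = 0.0438).

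Lcn2, the siderophore-binding lipocalin, lies at chr2:32384633-32388252 on the minus strand. Acute vehicle mice had 4.07 to 181 CPM (median 9.86), CORT mice 14.6 to 59.5 (median 33.6), ENZA mice 4.29 to 58.4 (median 5.16) and CORT+ENZA mice 12.6 to 882 (median 17.8). Leaving aside L31A, L29A and L30A, every mouse given CORT had more Lcn2 than every mouse not given it, 12.6 CPM or more against 10.9 or less. Vehicle mouse L31A (181 CPM) and ENZA mouse L29A (58.4 CPM) broke that separation. They were set aside for levels that include Lcn2 itself, so the separation follows in part from that choice. With all mice, CORT differed from vehicle by -0.14 ± 1.16 (adjusted p = 0.976) and CORT+ENZA from ENZA by 3.55 ± 1.27 (adjusted p = 0.172). In the alternative without L31A, L29A and L30A, Lcn2 was called higher with CORT by 1.99 ± 0.40 (adjusted p = 0.0143). There it was also called with CORT+ENZA against ENZA, by 2.02 (adjusted p = 0.0258). Both calls depend on the same choice of mice.

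Chronic Lcn2 had 2.82 to 15.8 CPM in vehicle (median 5.00), 5.00 to 20.6 in CORT (median 11.1) and 5.60 to 61.7 in CORT+ENZA (median 9.35). The 3 groups overlapped, and mouse 18 alone stood above 20.6 CPM. No comparison was called with all mice, the CORT difference being 0.82 ± 0.59 (adjusted p = 0.359), and CORT+ENZA against vehicle was 1.41 ± 0.58 (adjusted p = 0.105). The latter turned on single mice, being called at 1.89 without vehicle mouse 12 (adjusted p = 0.0416) and standing at 0.42 without mouse 18 (adjusted p = 0.503). Lcn2 is also a gene of neutrophil granules. Of the neutrophil markers, Ly6g was at 0 in 21 of 24 acute and 17 of 18 chronic libraries, and S100a8 reached at most 0.836 and 1.53 CPM. The summed level of the neutrophil markers was 12.7 CPM in L29A, 7.90 in L30A, 6.46 in L31A and 9.53 in chronic mouse 18, against group medians of 3.02 to 5.79 CPM. Vehicle mice L1A and L25A, with 9.48 and 7.92 CPM of these markers, lay above L31A, and their Lcn2 was no higher than 10.9 CPM. Among acute mice the marker Csf3r had 2.11 to 10.35 CPM and no other of these markers passed 1.07 CPM, so the acute sums lean on that gene. Among chronic mice Csf3r reached 5.04 CPM and the others at most 1.75. The part of neutrophils in the Lcn2 levels was not tested.

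The pentraxin gene Apcs lies at chr1:172893961-172895041 on the minus strand. Of the 10 genes it was the only one called in edgeR's test both with chronic CORT and, in the opposite direction, with ENZA added to it. Its level was 65.5 to 93.9 CPM in vehicle (median 75.0), 87.6 to 160.1 in CORT (median 127) and 48.2 to 67.7 in CORT+ENZA (median 53.4). The CORT+ENZA group lay wholly below CORT, and overlapped vehicle through mouse 18 alone. Apcs rose by 0.64 ± 0.13 with CORT (adjusted p = 0.00244), fell by 1.16 ± 0.13 with CORT+ENZA against CORT (adjusted p = 1.38e-05) and fell by 0.52 ± 0.13 against vehicle (adjusted p = 0.00992). These 3 calls held in every alternative. The comparisons share groups, so they are not independent of each other.

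Acute Apcs had 53.6 to 204 CPM in vehicle (median 70.6), 47.3 to 87.8 in CORT (median 79.5), 52.8 to 84.8 in ENZA (median 66.8) and 52.1 to 469 in CORT+ENZA (median 74.1). The groups overlapped, and L31A and L30A were the only mice above 89.6 CPM. No acute comparison was called. The effect of adding ENZA to CORT, chronic minus acute, was -2.02 ± 0.51 for Apcs (adjusted p = 0.0347). That call held in 13 of the 24 fits that left out 1 mouse and in neither limma-voom (adjusted p = 0.0692) nor the fit with no low-count filter (0.0929). Without L30A the difference was -1.03 (adjusted p = 0.0805), and without both L31A and L30A it was -1.03 with an adjusted p of 0.00410.

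Lbp, which carries lipopolysaccharide to its receptors, lies at chr2:158306493-158332852 on the plus strand. Chronic Lbp had 48.1 to 90.4 CPM in vehicle (median 54.0), 120 to 175 in CORT (median 136) and 114 to 152 in CORT+ENZA (median 129). Both treated groups lay wholly above vehicle, and they overlapped each other. Lbp rose by 1.25 ± 0.14 with CORT (adjusted p = 7.96e-06) and by 1.14 ± 0.14 with CORT+ENZA against vehicle (adjusted p = 1.19e-05). CORT+ENZA and CORT differed by -0.11 ± 0.14 with a 95% interval of -0.39 to 0.16 (adjusted p = 0.652).

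Acute Lbp had 105 to 145 CPM in vehicle (median 132), 128 to 178 in CORT (median 157), 112 to 146 in ENZA (median 129) and 136 to 185 in CORT+ENZA (median 145). The groups overlapped. The CORT difference was 0.29 ± 0.10 (adjusted p = 0.147). The chronic CORT effect on Lbp was higher than the acute one by 0.99 ± 0.17 (adjusted p = 0.000265), and this call held in every alternative.

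**Figure D3:**
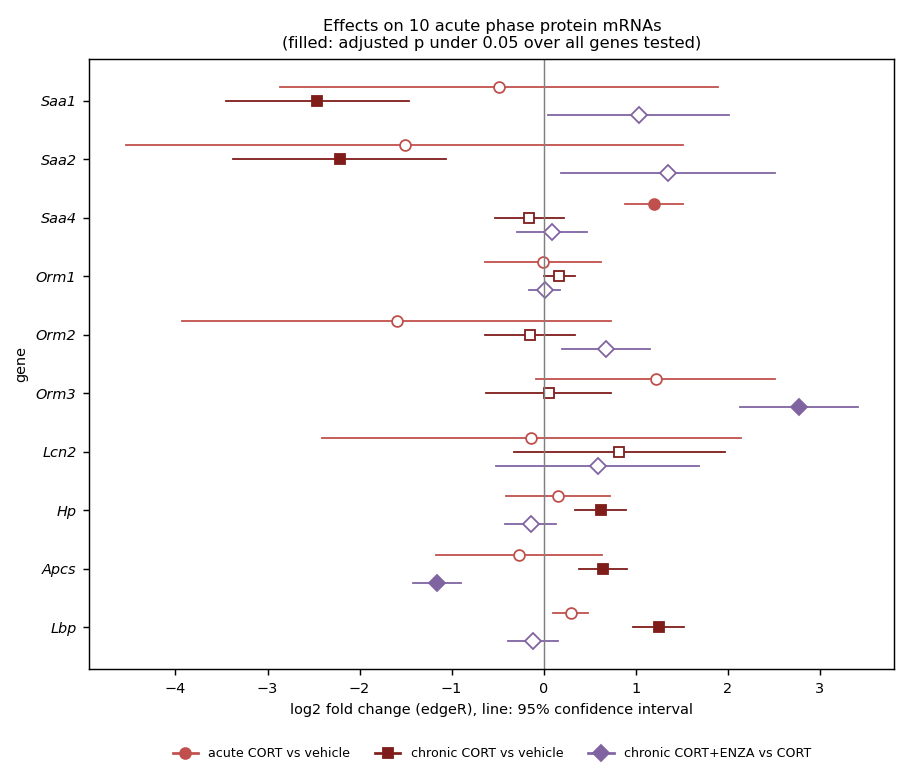
Log2 fold change of each gene in 3 comparisons, with lines for the 95% confidence interval; filled symbols have an adjusted p under 0.05 over all genes tested. After chronic CORT, Saa1 and Saa2 lie below 0 and Hp, Apcs and Lbp above it, Saa4 is filled for acute CORT only, and with chronic CORT+ENZA against CORT Orm3 lies at 2.77 and Apcs at -1.16.

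Counted over the 10 genes, chronic CORT changed 5 of them, 3 higher and 2 lower, against 18.3% of all genes. Chronic CORT+ENZA changed 2 against CORT, 1 in each direction, against 11.8% of all genes, and 5 against vehicle, 3 higher and 2 lower, against 18.6%. Acute CORT changed 1, Saa4 (1.62% of all genes called), as did CORT+ENZA against ENZA (1.81%) and against vehicle (2.47%). In that order, 2, 9 and 3 of the 10 had an unadjusted p under 0.05 in edgeR's test. Among all 13733 genes these numbers were 1934, 2050 and 2210. The CORT+ENZA group holds mouse L30A. The median of the 10 log2 fold changes was 0.11 after chronic CORT beside -0.013 for all genes, and the median of their absolute values was 0.63 beside 0.19. Acute ENZA alone changed 0 of the 10 in edgeR's test, DESeq2 and limma-voom (1.31% of all genes called in edgeR), with 2 at an unadjusted p under 0.05. Acute CORT+ENZA against CORT changed 0 of 10 in the same tools (0.175% of all genes called), with 1 at an unadjusted p under 0.05. The interaction of CORT and ENZA in the acute arm was called for 0 of 10 members and 0 of 13733 genes (0%) in the same 3 tools, with 4 members and 501 genes at an unadjusted p under 0.05.

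**Figure D4:**
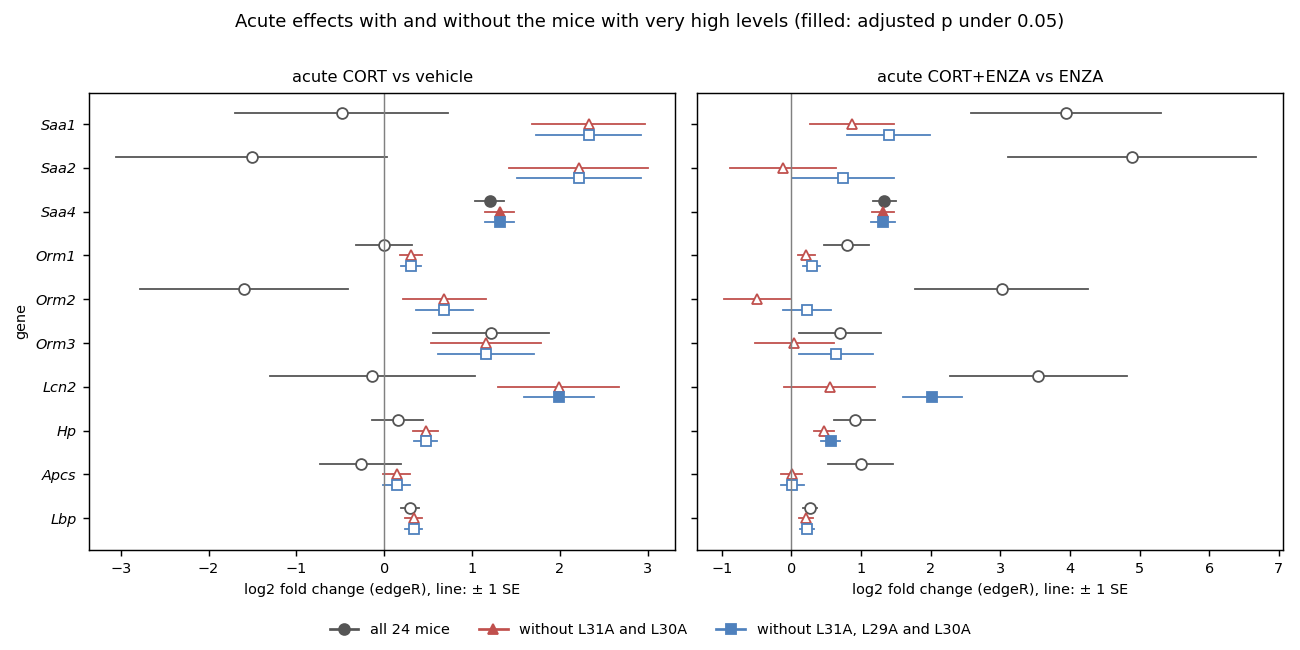
Log2 fold change ± 1 SE of each gene in 2 acute comparisons, with all 24 mice, without L31A and L30A, and without L31A, L29A and L30A; filled symbols have an adjusted p under 0.05. Saa4 is filled at about the same place in all 3 settings, whereas Saa1 for CORT against vehicle moves from -0.49 to 2.33 and Lcn2 from -0.14 to 1.99.

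Within the acute groups and with all 24 mice, Saa1, Saa2, Orm1, Orm2, Lcn2, Hp and Apcs varied together more closely than Saa4, Orm3 and Lbp did with them. Those 7 are the genes for which L31A and L30A stood far above their groups. Over the 24 mice, log2 levels taken as deviations from the group mean correlated at r = 0.941 for Lcn2 and Hp, 0.952 for Orm2 and Hp, and 0.909 for Saa1 and Orm2. Without L31A and L30A the same pairs had r = 0.776, 0.761 and 0.654 over 22 mice. Over all 24 mice the pairs among those 7 genes had r of 0.844 to 0.992, and the pairs that include Saa4, Orm3 or Lbp 0.217 to 0.637. Without L31A and L30A the pairs among the 7 ran from 0.350 to 0.975. The pairs that include Saa4, Orm3 or Lbp then ran from -0.105 to 0.751, so the 2 ranges overlapped and the clear split was lost. Likeness to other genes was measured as Pearson's r of log2 CPM over all libraries of an arm, so differences between groups enter it, and it is given as a description. Among 8942 other genes with a mean of 5 CPM or more, those most like Saa1 in the acute arm were Fgl1 (r = 0.931), Itih3 (0.888) and Cd302 (0.877), most like Orm2 were Hpx (0.941), Ambp (0.931) and Fgl1 (0.924), and most like Lcn2 were Fgl1 (0.904), Hpx (0.856) and Lrg1 (0.848). Without the 2 mice these 9 values were 0.581 to 0.836. Plin5 was most like Saa4 (r = 0.921 with all mice and 0.936 without the 2), a pair looked up after values had been seen.

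The closest genes differed in the chronic arm. Over 18 mice and 8907 genes, H2-Eb1 (r = 0.878), Pth1r (0.873) and H2-Aa (0.871) were most like Saa1, Slc35f5 (0.819), Ubqln2 (0.815) and Arl6ip5 (0.811) most like Orm2, and Abhd2 (0.818), Grn (0.806) and Nt5e (0.804) most like Lcn2. Without mouse 18, over 17 mice, the values were 0.858 to 0.868 for Saa1, 0.692 to 0.777 for Orm2 and 0.618 to 0.689 for Lcn2. H2-Eb1 and H2-Aa are class II antigen presentation genes, and the summed level of B cell markers was 14.4 to 85.0 CPM in chronic vehicle mice against 3.35 to 15.1 in chronic CORT mice. The part of these cells in the likeness was not tested.

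Of 20 other positive acute phase genes, chronic CORT raised 5 and lowered 2 (18.3% of all genes called), with a list median of 0.002 beside -0.013 for all genes. Those with the smallest p were Cp (ceruloplasmin, the copper carrier), which rose by 0.72 ± 0.09 (adjusted p = 1.41e-05), C3 (the central complement component), by 0.60 ± 0.09 (0.000204), and Crp (a pentraxin like Apcs), by 0.43 ± 0.09 (0.00169). Chronic CORT+ENZA against CORT raised 3 of the 20 and lowered 5 (11.8% of all genes called), with a median of -0.095 beside -0.003 for all genes. Itih4 fell by 0.58 ± 0.09 (adjusted p = 0.000377), the fibrinogen gamma chain gene Fgg fell by 0.58 ± 0.10 (0.000454) and Serpina3m, a serine protease inhibitor, fell by 0.72 ± 0.13 (0.000788). Against vehicle 3 rose and 5 fell (18.6% of all genes called). Fgg fell by 0.84 ± 0.10 (adjusted p = 5.29e-06), the fibrinogen alpha chain gene Fga fell by 0.84 ± 0.10 (5.57e-06) and C3 rose by 0.80 ± 0.09 (6.37e-06).

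After acute CORT 0 of those 20 genes were called by edgeR, DESeq2 or limma-voom, with 2 at an unadjusted p under 0.05 in edgeR's test. Acute ENZA gave 0 calls in edgeR's test, 2 in DESeq2 (Mt1 and Mt2, metallothioneins) and 1 in limma-voom (Fga), with 7 at an unadjusted p under 0.05 in edgeR's test. Acute CORT+ENZA gave 0 calls in each of the 3 tools against CORT and against vehicle, with 0 and 1 at an unadjusted p under 0.05 in edgeR's test. With CORT+ENZA against ENZA 4 of the 20 rose (1.81% of all genes called), with a median over the list of 0.38 beside -0.004. They were Lrg1, by 1.00 ± 0.22 (adjusted p = 0.0218), Mt2, by 2.42 ± 0.55 (0.0244), Mt1, by 1.97 ± 0.48 (0.0395), and Serpina3n. No fit of these genes without L30A is given. L30A was the highest of its group for 16 of the 20 genes and L31A for 13. Fibrinogen beta (Fgb) reached 5173 CPM in L30A, and Saa3, the serum amyloid A gene of macrophages and fat, 94.1 CPM in L31A. CORT mouse L32A, the highest CORT mouse for 9 of the 10 members, was the highest for 4 of the 20.

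The 13 negative acute phase genes, which the liver makes less of in inflammation, were led by Serpina6, the corticosteroid-binding globulin of plasma. Its level ranged from 31.7 to 60.9 CPM in chronic CORT mice (mean 48.2 ± 13.3, SD, n = 6) and from 137 to 345 CPM in chronic vehicle mice (214 ± 76.2). Serpina6 fell by 0.73 ± 0.19 with acute CORT (adjusted p = 0.0452), a call that DESeq2 also made and limma-voom did not, and by 2.15 ± 0.22 with chronic CORT (adjusted p = 3.79e-06), and the chronic minus acute CORT effect was -1.39 ± 0.30 (adjusted p = 0.00316). Chronic CORT lowered 2 of the 13 and raised none, a share no higher than the 18.3% called among all genes. Chronic CORT+ENZA against CORT lowered 2 and raised 1 (11.8% of all genes called): transthyretin (Ttr) fell by 1.01 ± 0.10 (adjusted p = 2.46e-06), albumin (Alb) fell by 0.65 ± 0.13 (0.00189) and Serpina6 rose by 0.91 ± 0.21 (0.00983). Against vehicle CORT+ENZA lowered 4 and raised none (18.6% of all genes called), and Ttr fell by 1.19 ± 0.10 (adjusted p = 1.31e-07).

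The summed hepatocyte markers, among which Alb and Ttr are counted, were 66700 to 86100 CPM in chronic CORT+ENZA mice, 96280 to 130700 in CORT mice and 105900 to 124900 in vehicle mice. Alb alone had 41390 to 103700 CPM over the chronic libraries, so the sums lean on that gene. Against CORT, CORT+ENZA lowered 2 of the 7 markers and raised 0 (11.8% of all genes called), and 2 of the 7 lay above 0. The sums moved with the lower Apcs and the higher Orm3 of CORT+ENZA, and their part in those results was not tested.

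Of the 17 cytokine and receptor genes, 13 were measured well enough to test. Il6, the main inducer of the class, was at 0 in all 6 chronic CORT libraries and reached at most 0.117 CPM in any group. Il1r1, the interleukin-1 receptor, rose by 1.13 ± 0.22 with acute CORT (adjusted p = 0.00622) and by 1.07 ± 0.29 with chronic CORT (adjusted p = 0.0154). Chronic CORT raised 3 of the 13 and lowered 5 (18.3% of all genes called). The interleukin-22 receptor gene Il22ra1 rose by 1.48 ± 0.33 (adjusted p = 0.00536), Il1b fell by 1.55 ± 0.38 (0.00839) and Tnfrsf1a fell by 0.27 ± 0.07 (0.00875). With CORT+ENZA against CORT 2 rose and 2 fell (11.8% of all genes called), among them Il1rn, the interleukin-1 receptor antagonist, by 1.66 ± 0.39 (adjusted p = 0.00943).

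Of 21 signalling and transcription factor genes, 0 were called after acute CORT by edgeR's test, 1 by DESeq2 (Nfkb2) and 1 by limma-voom (Nfkb1, like Nfkb2 a subunit of NF-kappaB), with 5 at an unadjusted p under 0.05 in edgeR's test. Chronic CORT raised 3 of the 20 tested and lowered 1, a share near the 18.3% called among all genes. Cebpd, a C/EBP factor of the acute phase response, rose by 1.28 ± 0.17 (adjusted p = 5.18e-05) and the glucocorticoid receptor Nr3c1 fell by 0.27 ± 0.08 (0.0298). The CORT effect on Cebpd was higher in the chronic than in the acute arm by 1.02 ± 0.28 (adjusted p = 0.0191). With CORT+ENZA against CORT, Hnf4a, a nuclear receptor of hepatocyte identity, fell by 0.31 ± 0.09 (adjusted p = 0.0323), and it was the only 1 of the 20 called in edgeR's test. Against vehicle, CORT+ENZA raised 3 of the 20 and lowered none (18.6% of all genes called), among them Cebpd by 0.98 ± 0.17 (adjusted p = 0.000474) and Cebpb, another C/EBP factor, by 0.53 ± 0.18 (0.0433).

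Of 18 genes for partners and receptors of the members, Cd163, which clears haptoglobin bound to haemoglobin, rose by 0.99 ± 0.24 with acute CORT (adjusted p = 0.0377). Chronic CORT raised Lcat by 0.55 ± 0.15 (adjusted p = 0.0137) and lowered Fcgr2b and Fpr2, out of 16 tested, a share near the 18.3% called among all genes. The call of Fcgr2b was not made by limma-voom. Chronic CORT+ENZA against CORT raised 4 of 16 (11.8% of all genes called), among them Cd36 by 1.04 ± 0.23 (adjusted p = 0.00752), Fpr2, a receptor for serum amyloid A, by 2.15 ± 0.53 (0.0115) and Fcgr1 by 1.66 ± 0.41 (0.0125). Summed Kupffer cell and macrophage markers were 145 to 650 CPM in chronic CORT+ENZA (median 214), 102 to 192 in CORT (median 158) and 112 to 388 in vehicle (median 255). Mouse 18 had the 650 CPM, and L29A had 686 CPM against a median of 226 in the acute ENZA group, while L31A and L30A had 282 and 316 CPM. The part of these cells in the levels of the members was not tested.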

How the data were processed

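Liver mRNA of 42 mice was sequenced from stranded, paired-end libraries on the DNBseq platform, per the labels' protocols. The deposited tables hold raw gene counts, 1 column per library, and the submitters' processing notes name FastQC, MultiQC, STAR 2.7.3a, HTSeq 0.12.4 and mm10. The sources used here do not give the strand setting of the counting or the annotation release. Every column was matched to a mouse by its label, 0 columns were left over, and rows that name no gene were kept out of library sizes and tests (pairs in no feature were 3.95 to 6.25% of a library).

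Gene symbols and coordinates came from GENCODE M21 (GRCm38), and promoters from RefSeq (GRCm38.p6). Genes were filtered with filterByExpr (minimum count 10, minimum total 15), scaled with TMM and tested with edgeR 4.0.16 (R 4.3.3) by the robust quasi-likelihood test, all groups of an arm in 1 model with no covariate and both arms in 1 model for differences between arms. Each comparison's p-values were adjusted (Benjamini-Hochberg) over all its genes, with a threshold of 0.05. The SE of a log2 fold change is the change divided by the root of its F statistic. The mice are separate animals by their labels. Where 50-base stretches shared with other genes made up over 10% of a gene, it is called uncertain.

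Alternatives were DESeq2 1.42.0, limma-voom (limma 3.58.1) with weights for sample quality, scaling by RLE, dropping or tightening the low-count filter, fitting only the groups compared, sets of 4 consecutive acute mouse numbers as a term, each mouse left out in turn, and named mice left out together. On simulated counts the edgeR script was tested before use. All 10 genes were tested in every comparison, but not every uncalled difference is printed. Of each list, up to 3 called genes per comparison are described, by smallest p. The result of 1 gene among those is not reported here. The genes and lists were chosen with earlier results of these data known. The C/EBP and NF-kappaB letters replaced earlier versions after the promoters had been seen.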

Additional observations from a re-analysis of the deposited data

Results flagged for a closer look

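Among 70 sets of 6 mice (10 genes in 7 groups), 27 had a mouse whose gap to its nearest neighbour, over the range of its group, passed Dixon's 95% critical value, and in 25 of them it was the highest mouse. For normally distributed values chance gives such a gap in about 1 in 20 groups. The gaps were taken on CPM without a log, so that rate is not exact for them, and the genes are not independent of each other.

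The gaps gathered in a few animals. CORT+ENZA mouse L30A stood far above its group with 3179 CPM of Saa1, 3553 CPM of Saa2, 2863 CPM of Orm1, 709.5 CPM of Orm2, 882.3 CPM of Lcn2, 8586 CPM of Hp and 469.4 CPM of Apcs. Vehicle mouse L31A stood far above its group for the same 7 genes, with 1443 CPM of Saa1, 1277 CPM of Saa2, 1477 CPM of Orm1, 297.9 CPM of Orm2, 180.8 CPM of Lcn2, 5828 CPM of Hp and 203.5 CPM of Apcs. ENZA mouse L29A did so with 65.96 CPM of Saa2, 46.59 CPM of Orm2 and 58.42 CPM of Lcn2. CORT mouse L32A had 1048 CPM of Orm1 and 50.34 CPM of Orm2.

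Chronic CORT+ENZA mouse 18 lay far above its group with 49.41 CPM of Saa1, 23.12 CPM of Saa2, 19.83 CPM of Orm2 and 61.74 CPM of Lcn2. Chronic vehicle mouse 12 had 44.65 CPM of Saa2, and chronic vehicle mouse 11 had 90.39 CPM of Lbp. Low values far from the rest were 478.5 CPM of Saa4 in acute CORT+ENZA mouse L18A and 47.31 CPM of Apcs in acute CORT mouse L20A.

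Effects that differed between the arms by a test of the difference itself were those of CORT on Saa4 (chronic minus acute -1.32 on the log2 scale) and on Lbp (0.99), and that of ENZA added to CORT on Apcs (-2.02). The calls of Saa4 and Lbp held in every alternative. The Apcs call did not, being lost with limma-voom, with no low-count filter and in several of the fits that left out 1 mouse, L30A among them.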

How the results depend on the processing

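No paired analysis was possible because the labels give no mouse number in more than 1 group. Acute numbers do fall into sets of 4 with 1 mouse per group, and the fit with those sets as a term is among the alternatives. Of 2594 recomputed differences of the 10 genes, 2379 kept their direction and their side of the threshold, 26 lost a call, 19 gained one and 170 changed sign, none of these last from a difference that was called with all mice. The number of the 10 genes called changed by more than 1.5 times as follows. For acute CORT against vehicle it was 2 without L31A, L29A and L30A. For CORT+ENZA against ENZA it was 2 with DESeq2 and 3 without those 3 mice. For CORT+ENZA against vehicle it was 2 with DESeq2, with sets of mouse numbers as a term and with the stricter filter, and 1 to 2 leaving out 1 mouse at a time. For the CORT effect (chronic minus acute) it was 4 without L31A and L30A, and 4 without L29A too. For the added ENZA effect (chronic minus acute) it was 0 with limma-voom and with no low-count filter, and 0 to 1 leaving out 1 mouse at a time. The number of all genes called over these alternatives was 96 to 432 for acute CORT against vehicle (222 as reported), 77 to 392 for ENZA (180), 14 to 59 for CORT+ENZA against CORT (24), 118 to 603 against ENZA (248) and 203 to 650 against vehicle (339). In the chronic arm the highest was 3394 for CORT against vehicle (2401) and 3833 for CORT+ENZA against vehicle (2434). For CORT+ENZA against CORT it ran from 1104 to 2171 (1552). It was 509 to 1650 for the CORT effect (873) and 129 to 432 for the added ENZA effect (179).

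The differences that changed sign are given on the log2 scale, and the fits without L31A and L30A, with or without L29A, were chosen after the data had been seen. With limma-voom the difference became 1.25 for Lcn2, 0.059 for Orm1, 1.17 for Saa1 and 0.71 for Saa2 in acute CORT against vehicle, and -0.11 for Hp, -0.37 for Lcn2, -0.0701 for Orm2, -0.70 for Saa1 and -0.77 for Saa2 in acute CORT+ENZA against CORT. There it became -0.056 for Apcs, -0.36 for Orm2 and -0.063 for Saa2 in acute CORT+ENZA against vehicle, and -0.027 for Orm3 in chronic CORT against vehicle. There it became -0.23 for Lcn2 in chronic CORT+ENZA against CORT, and 0.15 for Saa4 in chronic CORT+ENZA against vehicle. There it became -0.034 for Lcn2 in the CORT effect (chronic minus acute), and 0.13 for Lcn2, 0.64 for Orm2, 1.33 for Saa1 and 1.71 for Saa2 in the added ENZA effect (chronic minus acute). With no low-count filter the difference became 0.0017 for Orm1 in acute CORT against vehicle, and -0.0028 for Orm1 in chronic CORT+ENZA against CORT. With sets of mouse numbers as a term the difference became 0.85 for Lcn2, 0.034 for Orm1, 1.01 for Saa1 and 0.74 for Saa2 in acute CORT against vehicle, and -0.14 for Saa1 and -0.32 for Saa2 in acute CORT+ENZA against CORT. Without L19A and L36A the difference became -0.033 for Lbp in acute ENZA against vehicle, and 0.013 for Lbp in acute CORT+ENZA against CORT. There it became 0.046 for Lbp in the acute interaction. Without L31A and L30A the difference became 0.14 for Apcs, 1.99 for Lcn2, 0.31 for Orm1, 0.68 for Orm2, 2.33 for Saa1 and 2.21 for Saa2 in acute CORT against vehicle, and 0.72 for Lcn2, 0.044 for Orm1, 0.36 for Orm2 and 0.26 for Saa2 in acute ENZA against vehicle. There it became -0.16 for Apcs, -0.25 for Hp, -0.72 for Lcn2, -0.049 for Orm1, -0.83 for Orm2, -1.47 for Saa1 and -2.07 for Saa2 in acute CORT+ENZA against CORT, and -0.50 for Orm2 and -0.12 for Saa2 in acute CORT+ENZA against ENZA. There it became -0.016 for Apcs and -0.15 for Orm2 in acute CORT+ENZA against vehicle, and -0.14 for Apcs, -0.0015 for Hp, -1.44 for Lcn2, -0.093 for Orm1, -1.19 for Orm2, -1.45 for Saa1, -2.33 for Saa2 and -0.0017 for Saa4 in the acute interaction. There it became -1.14 for Lcn2, -0.11 for Orm1 and -0.81 for Orm2 in the CORT effect (chronic minus acute), and 0.081 for Hp, 1.27 for Lcn2, 0.032 for Orm1, 1.47 for Orm2, 2.46 for Saa1 and 3.39 for Saa2 in the added ENZA effect (chronic minus acute). Without L29A as well the values for acute CORT against vehicle and for acute CORT+ENZA against CORT and against vehicle were the same to the digits printed, apart from -0.0499 for Orm1 against CORT. There the acute interaction became -0.13 for Apcs, -0.017 for Orm1, -0.46 for Orm2, -0.93 for Saa1, -1.48 for Saa2 and -0.0032 for Saa4, the CORT effect (chronic minus acute) -1.13 for Lcn2, -0.10 for Orm1 and -0.80 for Orm2, and the added ENZA effect 0.077 for Hp, 1.26 for Lcn2, 0.029 for Orm1, 1.47 for Orm2, 2.46 for Saa1 and 3.38 for Saa2. Without mice 11 and 18 the difference became -0.41 for Lcn2 in chronic CORT+ENZA against CORT, and 0.15 for Saa4 in chronic CORT+ENZA against vehicle.

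Leaving out 1 mouse at a time, results that changed sign in at least 1 fit had these lowest to highest values. For acute CORT against vehicle they ran from -0.38 to 0.14 for Apcs, -0.37 to 1.99 for Lcn2, -0.13 to 0.31 for Orm1, -2.12 to 0.68 for Orm2, -0.75 to 2.33 for Saa1 and -1.79 to 2.21 for Saa2. For acute ENZA against vehicle they ran from -0.035 to 0.055 for Lbp, -2.88 to 0.72 for Lcn2, -0.34 to 0.044 for Orm1, -2.65 to 0.36 for Orm2 and -4.32 to 0.26 for Saa2. For acute CORT+ENZA against CORT they ran from -0.16 to 1.00 for Apcs, -0.25 to 0.32 for Hp, -0.0701 to 0.0301 for Lbp, -0.72 to 2.52 for Lcn2, -0.049 to 0.65 for Orm1, -0.83 to 3.22 for Orm2, -1.47 to 1.86 for Saa1 and -2.07 to 3.21 for Saa2. For acute CORT+ENZA against ENZA they ran from -0.50 to 3.75 for Orm2 and -0.12 to 5.75 for Saa2. For acute CORT+ENZA against vehicle they ran from -0.42 to 0.97 for Apcs, -0.098 to 0.66 for Hp, -0.86 to 4.26 for Lcn2, -0.056 to 0.84 for Orm1, -2.43 to 3.37 for Orm2, -1.96 to 3.92 for Saa1 and -3.58 to 5.15 for Saa2. For the acute interaction they ran from -0.085 to 0.023 for Lbp and -1.18 to 0.0801 for Orm3. For chronic CORT against vehicle they ran from -0.17 to 0.22 for Orm3. For chronic CORT+ENZA against CORT they ran from -0.41 to 0.82 for Lcn2, -0.033 to 0.058 for Orm1 and -0.033 to 0.19 for Saa4. For chronic CORT+ENZA against vehicle they ran from -0.19 to 0.044 for Saa4. For the CORT effect (chronic minus acute) they ran from -1.13 to 1.45 for Lcn2, -0.10 to 0.33 for Orm1, -0.80 to 2.01 for Orm2 and -4.40 to 0.021 for Saa2. For the added ENZA effect (chronic minus acute) they ran from -0.49 to 0.076 for Hp, -2.70 to 1.26 for Lcn2, -0.67 to 0.028 for Orm1, -2.58 to 1.47 for Orm2, -1.21 to 2.46 for Saa1 and -2.22 to 3.38 for Saa2.

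Levels under a few CPM, as for Orm3, Saa2 and Lcn2 in several groups, rest on few counts. The sequences that Saa1 shares with Saa2, and Orm1 with Orm2, limit how far each pair can be told apart. The cause of the changes above was not tested beyond the mice and settings named.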
